A study of Mus musculus with 8 samples.

Results

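Transcripts of cytochrome P450 and conjugation enzymes were followed in epithelium-enriched cells of the distal mouse lung. The members were taken by symbol, as all numbered cytochrome P450 genes (Cyp), flavin monooxygenases (Fmo), UDP-glucuronosyltransferases (Ugt), sulfotransferases (Sult), epoxide hydrolases (Ephx) and carboxylesterases (Ces), with Cyp1a1, Cyp1b1 and Cyp2f2 left out. This gave 155 of the 22756 genes in the files. Both lines of mice, whose strain is given as more than 90 percent C57BL/6, carry an IRES-tauGFP reporter at Chrna7, the gene of the nicotinic acetylcholine receptor α7. In α7G mice the receptor is otherwise normal, and in α7E260A:G mice it also carries a point mutation that limits its coupling to calcium. Adult mice of either line breathed either side-stream cigarette smoke (CS), 5 days per week over 4 months, or room air (control). RNA-Seq was done on 1 male and 1 female library in each of the 4 groups, α7G control, α7G CS, α7E260A:G control and α7E260A:G CS, after lavage and depletion of CD45-positive cells. The number of mice behind each library is not stated in the sources used here, so that p-values measure the spread between these libraries. Other alleles that may differ between the lines and the mutation itself cannot be told apart.

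Cytochrome P450s are heme enzymes of the endoplasmic reticulum and mitochondria that insert an oxygen atom into foreign compounds, fatty acids and sterols, with electrons from NADPH. Flavin monooxygenases oxidize soft nitrogen and sulfur atoms, while epoxide hydrolases and carboxylesterases split epoxides and esters with water. The conjugation enzymes then attach glucuronic acid (Ugt) or sulfate (Sult), which makes the products easier to excrete. In the mouse lung much of this activity sits in the club cells of the airway, and many of these genes are induced by polycyclic hydrocarbons or electrophiles of the kind found in smoke.

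The total coding sequence (CDS) counts per library lay between 8020726 and 10944100, so that 3 counts, taken as the floor of detection, corresponded to 0.274 to 0.374 RPM, the reads of a gene per 1000000 counted reads of its library. This floor covers counting error only. Chrna7 itself had a count of 0 in 7 libraries and of 4 in the male α7E260A:G control library, too few to compare, and CDS counts do not carry the substitution. Ddx3y on the Y chromosome was counted 520 to 882 times in the libraries labelled male and 0 times in those labelled female. Libraries differed in how the counts depended on CDS length, with slopes from -0.24 in the male α7G CS library to 0.41 in the male α7E260A:G control library (log2 per doubling of length). Labels gave no batch. In such bulk samples fewer cells of a type and less RNA per cell cannot be told apart.

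Most members were silent or nearly so. No count was found in any library for 66 of the 155 members, among them all of the Cyp2c cluster except Cyp2c29, Cyp2c44 and Cyp2c55, and the bile acid enzyme Cyp7a1. A further 42 members had a mean below 10 counts and 26 had a mean of 10 to 200. The remaining 21 passed the abundance filter of the study (a mean of at least 200 counts over the 8 libraries) and were tested among 7189 genes. They were 11 of the 88 Cyp genes, 4 of the 6 Fmo genes, 2 of the 17 Sult genes, 2 of the 20 Ugt genes, 1 of the 4 Ephx genes and 1 of the 20 Ces genes. Members together took between 0.200% and 0.458% of the counts of a library.

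On a scale of RPM per kilobase of CDS, which allows levels of different genes to be compared, the mean over the 8 libraries was highest for Ces1d at 489. Cyp2a5 followed at 306, Cyp4b1 at 185, Ephx1 at 168, Cyp2s1 at 159 and Sult1d1 at 127. Fmo2 stood at 103, Cyp2b10 at 94.1, Cyp4f18 at 83.4 and the other tested members between 15.6 (Cyp4f13) and 67.8 (Cyp4v3). The ratio of the highest to the lowest library differed widely among them, from 1.46 for Cyp4f13 to 4.73 for Cyp2a5. Some members were thus nearly level across all libraries, while others differed several-fold between single libraries.

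**Figure D1:**
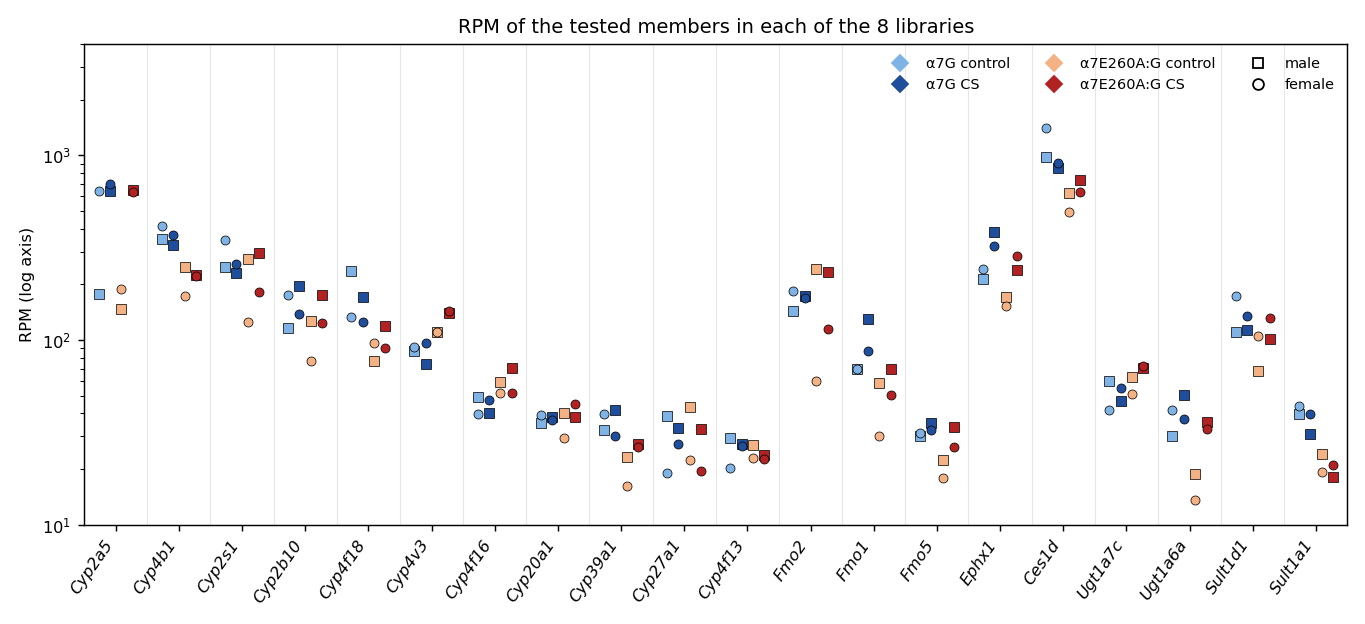
RPM (log axis) of 20 tested members in each of the 8 libraries, with genotype and exposure by color and sex by symbol. Ces1d is the highest member in all libraries but that of α7E260A:G female CS, where Cyp2a5 is as high, and Cyp2a5 shows 5 libraries between 635 and 697 RPM against 3 between 147 and 189.7 RPM.

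The first comparison asked whether transcripts of these enzymes depended on the genotype of the α7 receptor. Transcripts of Ces1d, Cyp4b1, Sult1a1, Cyp39a1 and Cyp4f18 were lower in each of the 4 α7E260A:G libraries than in any of the 4 α7G libraries, and those of Cyp4v3 and Cyp4f16 were higher in each. Lower without overlap were in all 6 of 21 tested members, where 5.15% of all 7189 genes tested were, and higher without overlap were 2 of 21, where 2.99% of all genes were. In edgeR (quasi-likelihood, Benjamini-Hochberg over all genes tested), 0 of the 21 members and 6 of the 7189 genes (0.0835%) passed an adjusted p of 0.05. At an unadjusted p under 0.05 there were 10 members, 8 lower and 2 higher, where 11.9% of all genes were. The median log2 fold-change was -0.34 over the members and 0.04 over all genes tested. Counted by pairs of the same sex and exposure, 11 of 21 members were lower in α7E260A:G in 4 of 4 pairs, where 15.1% of all genes were, and 3 were higher in 4 of 4, where 7.85% were.

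These calls depended on the model. With an offset that removes the dependence on CDS length, edgeR called 6 of the 21 members, among them Cyp4b1, Sult1a1, Ces1d and Fmo1 as lower and Cyp4v3 as higher, where 6.64% of all genes were called. DESeq2 called these 6 and Ugt1a6a as lower, where it called 5.88% of all genes. Each of the 10 members under an unadjusted p of 0.05 kept its direction in all 17 alternatives tried.

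**Figure D2:**
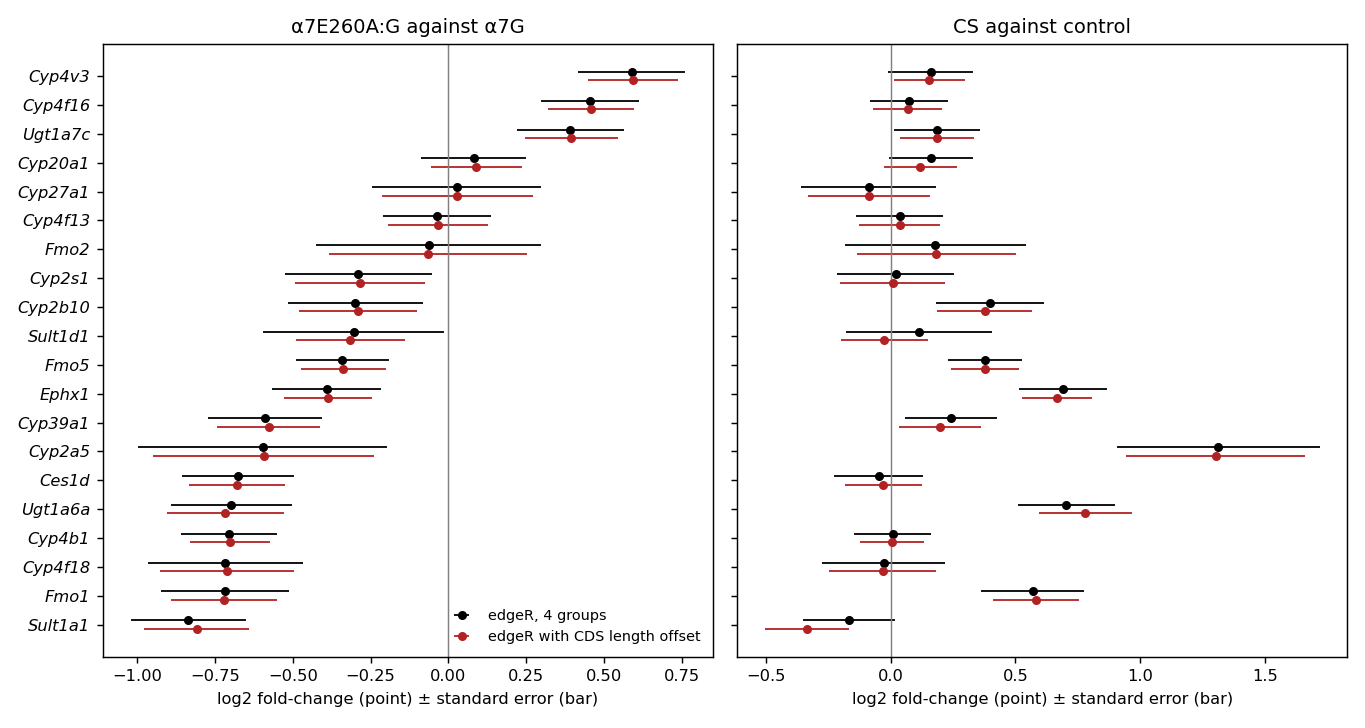
Log2 fold-changes (points) with standard errors (bars) of 20 tested members for genotype (left) and CS (right), from edgeR with the 4 groups (black) and with the CDS length offset (red). Sult1a1 lies farthest to the left for genotype and Cyp2a5 farthest to the right for CS. The offset moves each point by less than its black bar, though for Sult1a1 under CS by slightly more than its red bar.

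Of the flavin monooxygenases, Fmo1 was lower in α7E260A:G in 4 of 4 pairs but its libraries overlapped, with 69.9 and 69.8 RPM in α7G control, 129.8 and 86.8 in α7G CS, 58.7 and 30.2 in α7E260A:G control and 69.8 and 50.4 in α7E260A:G CS (male and female). Its log2 fold-change by genotype was -0.72 ± 0.21 (SE, edgeR adjusted p = 0.193). Fmo2, the main flavin monooxygenase of the lung in many mammals, went opposite ways in the sexes. In males it stood at 144 and 174 RPM in α7G and at 241 and 232 RPM in α7E260A:G, and in females at 185 and 168 RPM in α7G and at 60.2 and 115 RPM in α7E260A:G (control and CS). Fmo5 on chromosome 3 ranged from 30.3 to 35.4 RPM in α7G and from 17.8 to 33.9 RPM in α7E260A:G.

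The carboxylesterases split ester drugs, pyrethroids and acylglycerols. Ces1d, the most abundant member (ENSMUSG00000056973.6, chromosome 8 from 95689967 to 95721737 of NCBIM37, the mm9 assembly used for all gene positions here), stood at 974 and 1403 RPM in α7G control, 854 and 911 in α7G CS, 622 and 494 in α7E260A:G control and 738 and 634 in α7E260A:G CS (male and female). Each α7E260A:G library was below each α7G library, with a log2 fold-change of -0.68 ± 0.18 (edgeR adjusted p = 0.175). Ces1e and Ces1f, relatives on chromosome 8 that were too low for the main test, had the same order. Ces1e was at 15.6 to 18.5 RPM in α7G and 6.31 to 10.3 RPM in α7E260A:G, and Ces1f at 14.3 to 26.7 RPM in α7G and 3.84 to 12.8 RPM in α7E260A:G. The mean of Ces1e was 17.2 ± 1.33 against 8.59 ± 1.93 RPM and that of Ces1f 21.0 ± 5.27 against 9.07 ± 3.82 RPM (SD, n = 4). Not all Ces genes followed, since Ces2c was higher in α7E260A:G in 4 of 4 pairs, at 5.05 to 8.03 RPM in α7G and 5.30 to 12.7 RPM in α7E260A:G. It is named here after its values were seen. Of its CDS, 68.6% of the 50-base windows occur in other Ces2 genes, so that its counts are uncertain.

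Among the P450s of foreign compounds, Cyp4b1, which is abundant in lung and activates furans and aromatic amines (ENSMUSG00000028713.10, chromosome 4 from 115297303 to 115320322), was lower in α7E260A:G. It stood at 351 and 415 RPM in α7G control, 327 and 372 in α7G CS, 248 and 172 in α7E260A:G control and 225 and 222 in α7E260A:G CS (male and female). The means were 366 ± 37.1 and 217 ± 32.0 RPM (SD, n = 4), with a log2 fold-change of -0.71 ± 0.16 (edgeR adjusted p = 0.122) and no overlap. Cyp2s1, an epithelial P450 that handles retinoids and hydrocarbons, did not separate the genotypes. In males it was at 249 and 229 RPM in α7G and 273 and 296 RPM in α7E260A:G, and in females at 347 and 259 RPM in α7G and 125 and 181 RPM in α7E260A:G (control and CS). Cyp2b10, a classical phenobarbital-inducible P450, ranged from 116 to 197 RPM in α7G and from 77.0 to 176 RPM in α7E260A:G.

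The P450s of endogenous lipids went both ways. Cyp4f18, which oxidizes leukotriene B4 and is known from myeloid cells, stood at 238 and 133 RPM in α7G control, 170.5 and 125 in α7G CS, 76.5 and 96.8 in α7E260A:G control and 119 and 90.3 in α7E260A:G CS (male and female). Its log2 fold-change was -0.72 ± 0.25 (edgeR adjusted p = 0.294). Cyp39a1, an oxysterol hydroxylase of bile acid synthesis, was at 30.0 to 41.5 RPM in α7G and 16.3 to 27.4 RPM in α7E260A:G, with a log2 fold-change of -0.59 ± 0.18 (edgeR adjusted p = 0.234). Both were without overlap. Cyp4f15, a further fatty acid hydroxylase with a mean under 200 counts, was at 9.48 to 14.0 RPM in α7G and 2.28 to 6.42 RPM in α7E260A:G.

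In contrast, Cyp4v3, a hydroxylase of medium-chain fatty acids (ENSMUSG00000079057.2, chromosome 8 from 46391155 to 46418570), stood at 87.2 and 92.0 RPM in α7G control, 74.0 and 96.0 in α7G CS, 111 and 109.7 in α7E260A:G control and 140.0 and 144 in α7E260A:G CS (male and female). All 4 α7E260A:G libraries were above all α7G libraries, with a log2 fold-change of 0.59 ± 0.17 (edgeR adjusted p = 0.203). Cyp4f16 was at 39.8 to 49.2 RPM in α7G and 51.5 to 70.7 RPM in α7E260A:G, with a log2 fold-change of 0.46 ± 0.16 (edgeR adjusted p = 0.295). In its CDS 36.5% of the 50-base windows occur in another gene, and in that of Cyp4v3 13.8% do, so that their counts are less certain than those of Cyp4b1 or Sult1a1, where none do. Cyp4f13 (20.2 to 29.3 RPM), Cyp20a1 (29.6 to 44.8 RPM), an orphan P450, and Cyp27a1 (19.0 to 43.3 RPM), the mitochondrial sterol hydroxylase, overlapped between the genotypes.

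Of the conjugation enzymes, Sult1a1, the phenol sulfotransferase (ENSMUSG00000030711.8, chromosome 7 from 133816379 to 133819946), stood at 39.6 and 43.9 RPM in α7G control, 30.8 and 39.5 in α7G CS, 24.0 and 19.2 in α7E260A:G control and 18.1 and 21.0 in α7E260A:G CS (male and female). The means were 38.4 ± 5.47 and 20.6 ± 2.59 RPM (SD, n = 4), a fold of 1.87 with no overlap, and the log2 fold-change was -0.84 ± 0.19 (edgeR adjusted p = 0.123). Sult1d1, which sulfates catecholamines, was lower in α7E260A:G in 4 of 4 pairs, but the pairs differed little in CS, at 113 and 135 RPM in α7G and 101 and 132 RPM in α7E260A:G. Ugt1a6a, which glucuronidates planar phenols, had a log2 fold-change of -0.70 ± 0.19 (edgeR adjusted p = 0.186) with overlapping libraries. Ugt1a7c was higher in α7E260A:G in 4 of 4 pairs, at 41.6 to 60.0 RPM in α7G and 50.9 to 72.0 RPM in α7E260A:G. The Ugt1a genes share their last exons, with 57.4% of the annotated CDS of Ugt1a6a and 46.1% of that of Ugt1a7c in common with other Ugt1a genes, so that reads there cannot be given to 1 of them.

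**Figure D3:**
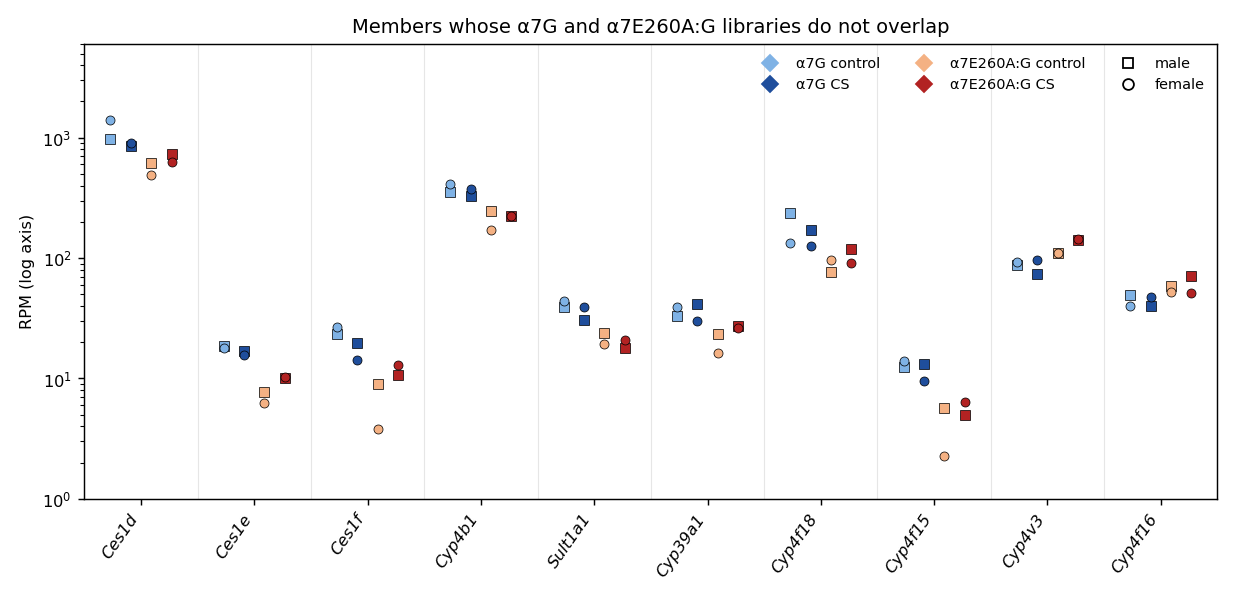
RPM (log axis) per library of 10 members with a mean of at least 10 counts whose 4 α7G and 4 α7E260A:G libraries do not overlap. The first 8 members lie lower in α7E260A:G (orange and red) than in α7G (blue), and Cyp4v3 and Cyp4f16 lie higher.

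Of the 26 members with a mean of 10 to 200 counts, Ces1e, Ces1f and Cyp4f15 were lower without overlap, where 5.98% of the 6007 genes in this range were, and 0 were higher, where 1.5% were. Each of the 3 had an exact two-sided permutation p of 0.0286, the smallest that 70 arrangements allow. In a fit by edgeR of all 14140 genes that passed filterByExpr their log2 fold-changes were -0.94 ± 0.20, -1.19 ± 0.27 and -1.30 ± 0.31 (adjusted p = 0.118, 0.145 and 0.154). Over the 7189 genes tested, the smallest adjusted p of the exact tests was 0.351 for genotype and 0.764 for CS.

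Markers of the cell types that the fraction could hold also differed between the genotypes. The summed RPM of 11 club cell markers was 53320 to 85370 in α7G and 21370 to 53860 in α7E260A:G, and 4 of the 10 that were tested had an unadjusted p under 0.05, all lower. Of 9 tested markers of ATII cells (alveolar epithelial type II) 7 were lower at that p, with sums of 20200 to 30800 RPM against 4821 to 14900 RPM, and of 5 tested ATI markers 4 were, with sums of 469.9 to 546 RPM against 209 to 383 RPM. Of 9 ciliated cell markers 0 were, and of 5 general epithelial markers 3 were lower. Alveolar macrophage markers, from cells that the CD45 depletion should remove, summed to 12280 to 19070 RPM in α7G and 27750 to 43940 RPM in α7E260A:G. Of these 16 markers 13 were higher at an unadjusted p under 0.05, and Msr1 (12.8 ± 6.42 against 77.5 ± 11.6 RPM, SD, n = 4) was the marker called at an adjusted p under 0.05. Ptprc, which encodes CD45, stood in the list of other leukocytes, where 4 of 12 were lower and 0 higher at that p. Of the endothelial markers 2 of 7 were lower and of the fibroblast markers 0 of 8. Every marker found in the files was counted in some library.

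The median log2 fold-change by genotype was -0.69 over club cell markers, -1.20 over ATII markers, -0.82 over ATI markers and 0.94 over alveolar macrophage markers. It was -0.71 over general epithelial, -0.38 over ciliated, -0.35 over other leukocyte, -0.29 over endothelial and 0.46 over fibroblast markers. Set beside these, the values of Ces1d (-0.68) and Cyp4b1 (-0.71) were close to the club cell and general epithelial medians. That of Sult1a1 (-0.84) was close to the ATI median. Cyp4f18 (-0.72) was lower while the alveolar macrophage median was positive. Cyp4v3 (0.59) and Cyp4f16 (0.46) were higher while the club cell, ATII and ATI medians were negative. The fibroblast median was also positive and close to the value of Cyp4f16. Cyp2f2, a club cell P450 and no member, was at 3316 to 4613 RPM in α7G and 2003 to 2607 RPM in α7E260A:G. The part of cell composition in the genotype differences of the members was not tested.

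**Figure D4:**
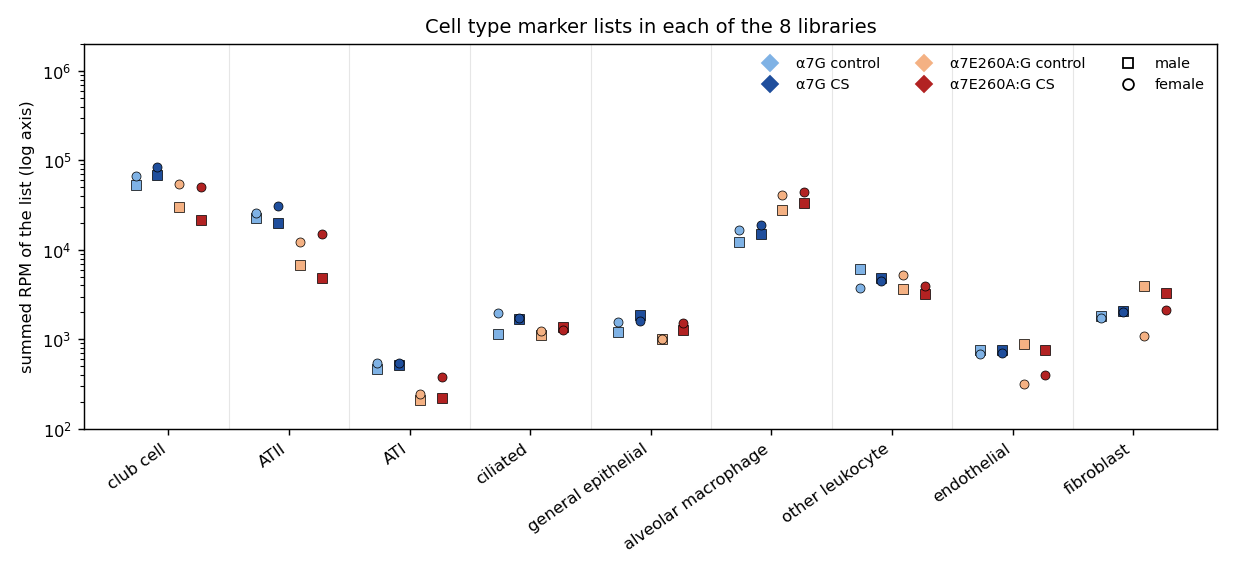
Summed RPM (log axis) of each cell type marker list in each of the 8 libraries, with genotype and exposure by color and sex by symbol. ATII and ATI sums are lower in all α7E260A:G libraries than in all α7G libraries and alveolar macrophage sums are higher, while the other lists overlap.

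The second comparison asked which of these transcripts depended on CS. Cyp2a5, Ephx1, Ugt1a6a, Fmo1 and Fmo5 were the members with an unadjusted p under 0.05 by edgeR, all 5 with higher values after CS, where 7.61% of all genes were under that p. At an adjusted p of 0.05, edgeR called 0 of the 21 members and 0 of the 7189 genes (0%), and DESeq2 called 0 members and 39 genes. The median log2 fold-change was 0.16 over the members and 0.00 over all genes tested. Libraries of CS and control did not separate for any tested member, where 1.66% of all genes were higher and 0.417% lower without overlap. Cyp2a5, Ephx1, Fmo1 and Fmo5 were the 4 of 21 members higher after CS in 4 of 4 pairs of the same genotype and sex, where 13.1% of all genes were, and 0 members were lower in 4 of 4, where 12.1% were.

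Cyp2a5 is the mouse counterpart of human CYP2A6 and oxidizes coumarin, nicotine and tobacco nitrosamines (ENSMUSG00000005547.8, chromosome 7 from 27620324 to 27628567). In controls it stood at 178 RPM in the α7G male, 638 in the α7G female, 147 in the α7E260A:G male and 189.7 in the α7E260A:G female library. After CS it stood at 641, 697, 649 and 635 RPM in the same order. The 4 CS libraries were thus nearly alike, 3 control libraries were far below them, and the α7G female control library was already at their level. The ratio of CS to control was 3.61 and 1.09 in α7G males and females and 4.41 and 3.35 in α7E260A:G males and females. The means were 288 ± 234 RPM in control and 656 ± 27.9 RPM in CS (SD, n = 4, exact permutation p = 0.0571), with a log2 fold-change of 1.31 ± 0.41 (edgeR adjusted p = 0.629). Without the α7G female control library the log2 fold-change was 1.97 (adjusted p = 0.683), and without the α7G male control library 0.98 (adjusted p = 0.989). Within α7E260A:G it was 1.81 ± 0.58 (edgeR adjusted p = 1.0).

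Cyp2a4, a neighbor and near copy of Cyp2a5 known as a steroid hydroxylase, had few reads. Its counts were 8 and 3 in the α7G control, 36 and 25 in the α7G CS, 9 and 16 in the α7E260A:G control and 19 and 37 in the α7E260A:G CS libraries (male and female). In RPM each CS library was above each control library, at 0.960 ± 0.476 in control and 3.37 ± 0.913 in CS (SD, n = 4, exact permutation p = 0.0286), and the ratio was between 2.16 and 8.81 in the 4 pairs. In the filterByExpr fit the log2 fold-change was 1.92 ± 0.51 (edgeR adjusted p = 0.637). The 2 coding sequences have 1485 bases each, of which 23 differ (98.45% identical, GENCODE M1). Of the 50-base windows of either, 38.1% occur in the other. They are shown from base 590 to 669 of the CDS, where 5 of the differences fall, because reads are told apart only there and at the remaining differences. Capitals mark the bases that differ.
Cyp2a5: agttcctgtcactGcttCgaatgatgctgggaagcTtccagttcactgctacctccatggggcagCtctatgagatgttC
Cyp2a4: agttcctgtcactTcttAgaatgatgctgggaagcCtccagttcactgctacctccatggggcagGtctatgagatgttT
Some of the counts of Cyp2a4 may therefore be reads of the far more abundant Cyp2a5, and its values are uncertain. In the α7G female control library, where Cyp2a5 was already at the level of the CS libraries, Cyp2a4 had 3 counts. The part of such reads in the difference of Cyp2a4 between CS and control was not tested.

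Ephx1, the microsomal epoxide hydrolase that opens epoxides of polycyclic hydrocarbons (ENSMUSG00000038776.7, chromosome 1 from 182906286 to 182951035), stood at 213 and 242 RPM in α7G control and at 382 and 323 RPM in α7G CS (male and female). In α7E260A:G it stood at 169.7 and 153 RPM in control and at 238 and 286 RPM in CS. It was higher after CS in each pair, by ratios of 1.80, 1.33, 1.40 and 1.87, while the male α7E260A:G CS library was just below the female α7G control library. The means were 194 ± 40.7 and 307 ± 60.7 RPM (SD, n = 4, exact permutation p = 0.0571), with a log2 fold-change of 0.69 ± 0.18 (edgeR adjusted p = 0.629). Over the alternatives the log2 fold-change lay between 0.56 and 0.80 with adjusted p from 0.0656 to 1.0. Ephx2, the soluble epoxide hydrolase of epoxy fatty acids, was lower in abundance and did not overlap, at 1.00 to 2.67 RPM in control and 2.91 to 4.86 RPM in CS (exact permutation p = 0.0286). Ephx4 was higher after CS in 4 of 4 pairs, by ratios between 1.05 and 2.15, with overlap.

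Ugt1a6a stood at 30.1 and 42.0 RPM in α7G control, 50.4 and 37.1 in α7G CS, 18.9 and 13.6 in α7E260A:G control and 35.9 and 32.9 in α7E260A:G CS (male and female). It was higher after CS in 3 of 4 pairs, and in α7G females the control library was above its CS library. The log2 fold-change was 0.70 ± 0.19 over both genotypes and 1.01 ± 0.28 within α7E260A:G (edgeR adjusted p = 0.629 and 1.0). The sum of the 20 Ugt genes was 82.9 ± 12.5 RPM in control and 104 ± 7.51 RPM in CS (SD, n = 4, exact permutation p = 0.0286, the lowest of 6 family sums compared). For the other 5 families that p lay between 0.0571 (Ephx) and 0.886 (Sult), and for the sum of all members it was 0.429. The α7G female control library was then left out because its values for Cyp2a5 and Ugt1a6a had been seen to be high. Without it, Cyp2a5, Ephx1 and Ugt1a6a were the 3 of 21 tested members higher in each CS library than in any control library. Of all genes 4.1% were higher in this way and 0.807% lower, and 0 members were lower. Since the values of Cyp2a5 and Ugt1a6a chose the library, the count of 3 cannot be judged against that share. With all 8 libraries the count was 0.

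Of the flavin monooxygenases, Fmo1 was higher after CS by ratios between 1.19 and 1.86 in the 4 pairs, with a log2 fold-change of 0.57 ± 0.21 (edgeR adjusted p = 0.629). Fmo5 was higher by ratios between 1.04 and 1.51 (0.38 ± 0.15, edgeR adjusted p = 0.629). Cyp2b10 was higher in 3 of 4 pairs, from 116 to 197 RPM in α7G males, 127 to 176 in α7E260A:G males and 77.0 to 124 in α7E260A:G females, while in α7G females it was at 176 RPM in control and 137 RPM in CS.

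**Figure D5:**
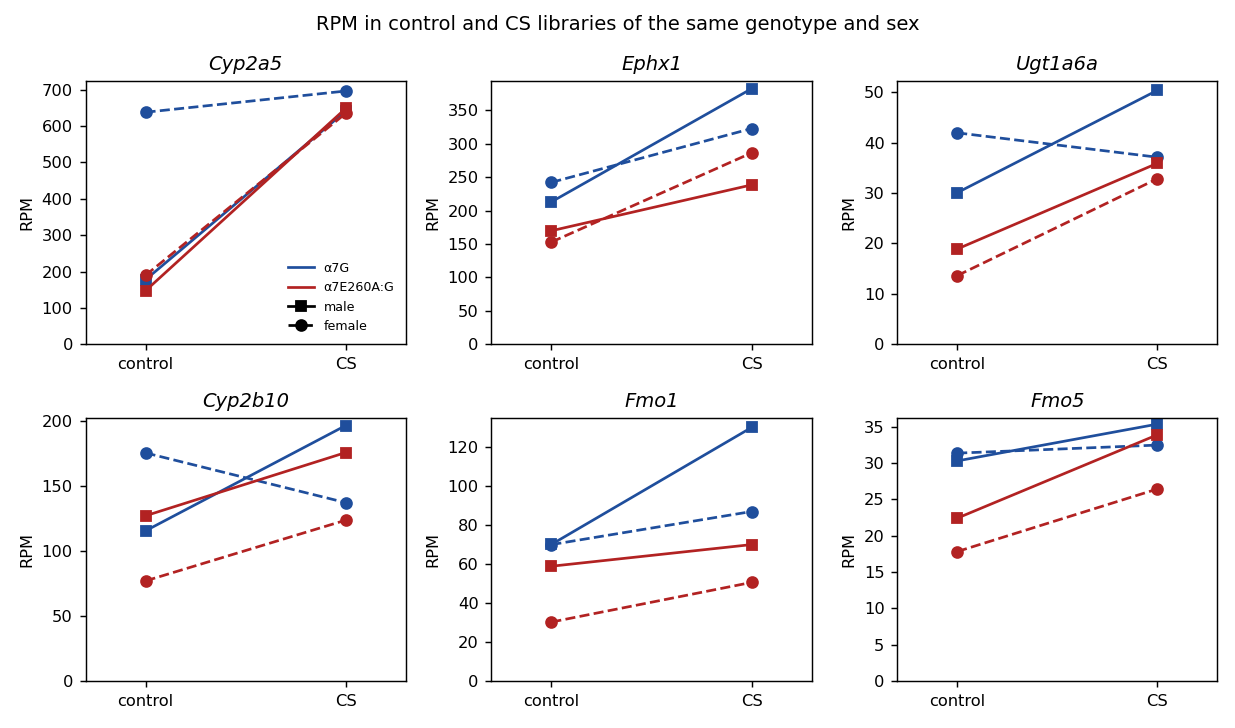
RPM of 6 members in control and CS libraries, where each line joins the 2 libraries of the same genotype (color) and sex (symbol and line type) and the axis starts at 0. For Cyp2a5, Ugt1a6a and Cyp2b10 the α7G female line (dashed blue) starts high and ends near or below its start, while the other 3 lines end above their start.

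Cyp2a5, Ephx1 and Ugt1a6a were higher in each CS library than in any control library only when the α7G female control library was left out. With all libraries kept, no tested member separated in this way. The promoters of Cyp2a5, Ephx1 and Ugt1a6a are printed to show what the sequence before the start of each gene holds. Those of Fmo1 and Fmo5, which unlike Ugt1a6a were higher after CS in every pair of the same genotype and sex, are not. Each printed promoter runs from 250 bases before to 50 bases after the start annotated by RefSeq in GRCm38.p6. This is a later assembly than that of the counts. They read 5′ to 3′ on the strand of the gene, and capitals mark the letters TATAAA, which form the core of a TATA box. This match begins at position -29 in Cyp2a5 and -214 in Ephx1 relative to the start. Whether either match serves as a TATA box was not tested. Cyp2a5 is at chr7:26835089-26835388 on the plus strand, Ephx1 at chr1:181017520-181017819 on the minus strand and Ugt1a6a at chr1:88134559-88134858 on the plus strand.
Cyp2a5: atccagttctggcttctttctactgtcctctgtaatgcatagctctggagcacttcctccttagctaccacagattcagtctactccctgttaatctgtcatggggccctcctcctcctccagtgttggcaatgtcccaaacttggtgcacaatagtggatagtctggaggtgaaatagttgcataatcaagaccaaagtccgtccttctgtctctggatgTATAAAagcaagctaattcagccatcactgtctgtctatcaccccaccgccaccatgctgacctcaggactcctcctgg
Ephx1: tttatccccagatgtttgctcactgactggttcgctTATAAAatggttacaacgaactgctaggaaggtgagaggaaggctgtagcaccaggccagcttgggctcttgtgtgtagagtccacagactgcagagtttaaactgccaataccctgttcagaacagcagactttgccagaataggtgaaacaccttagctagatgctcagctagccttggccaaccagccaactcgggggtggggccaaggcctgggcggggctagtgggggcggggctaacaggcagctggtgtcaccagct
Ugt1a6a: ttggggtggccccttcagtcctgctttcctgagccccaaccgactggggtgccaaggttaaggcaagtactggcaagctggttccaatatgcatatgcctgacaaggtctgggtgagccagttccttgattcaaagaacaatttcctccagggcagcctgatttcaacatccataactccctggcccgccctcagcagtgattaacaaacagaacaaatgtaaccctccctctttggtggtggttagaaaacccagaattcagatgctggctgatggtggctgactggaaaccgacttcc
Motifs were searched on both strands in the 18 promoters held for 17 of the tested members. GCGTG, the core recognized by the aryl hydrocarbon receptor with its partner Arnt, was in 5 of them (Cyp20a1, Cyp2b10, Cyp4f16, Cyp4v3 and Sult1d1), where 32.4% of all 32851 promoters of this length hold it. TGACNNNGC, the core of the antioxidant response element, was in 1 (Cyp4f18), where 12.4% of all do. TATAAA was in 4 (Cyp2a5, Ephx1, Fmo5 and Sult1d1), where 13.6% of all do. No entry was held for Ces1d, Cyp39a1 and Fmo1. A match is a description of the letters in these windows.

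Of the members with a mean of 10 to 200 counts, 3 of 26 were higher in each CS library than in any control library, namely Cyp2a4, Ephx2 and Ces2g, where 2.11% of the 6007 genes in this range were, and 0 were lower, where 1.5% were. Ces2g, an intestinal type of carboxylesterase, was at 2.92 to 9.99 RPM in control and 12.5 to 17.6 RPM in CS, with means of 7.51 ± 3.16 and 14.99 ± 2.13 RPM (SD, n = 4, exact permutation p = 0.0286). In the filterByExpr fit the log2 fold-changes were 1.09 ± 0.34 for Ces2g and 1.20 ± 0.37 for Ephx2 (edgeR adjusted p = 0.653 for both). Ces1g was higher after CS in 3 of 4 pairs, at 4.93 and 41.7 RPM in α7G males, 3.66 and 11.6 in α7E260A:G males and 1.19 and 14.6 in α7E260A:G females (control and CS), while in α7G females it was at 6.94 RPM in control and 3.38 RPM in CS. The other members among the 10 most abundant of this range overlapped in both comparisons, with Cyp11a1, which starts steroid synthesis, at 5.76 to 30.4 RPM, Cyp2d22 at 6.21 to 19.9, Cyp2j6, an arachidonic acid epoxygenase, at 6.85 to 20.7, Cyp2e1, which oxidizes ethanol and nitrosamines, at 5.65 to 14.9 and Ephx4 at 5.29 to 11.4 RPM. The remaining members of this range, apart from Ces2c, were at 10.8 RPM or less in every library.

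Within one genotype the test had 2 libraries on each side. In α7G, edgeR called 0 members and 0 genes (0%), with 2 members and 6.72% of all genes at an unadjusted p under 0.05, and DESeq2 called 0 members and 25 genes. These 2 were Ephx1 (0.75 ± 0.25) and Fmo1 (0.75 ± 0.29) as log2 fold-changes, both with an edgeR adjusted p of 0.589. In α7E260A:G, edgeR called 0 members and 0 genes (0%), with 4 members (Cyp2a5, Ugt1a6a, Ephx1 and Fmo5) and 1.67% of all genes at an unadjusted p under 0.05, and DESeq2 called 0 members and 11 genes. When the 4 α7G libraries were fitted alone, Ephx1 and Fmo1 passed (edgeR adjusted p = 0.0309 and 0.0448). These were 2 of 21 members, where 1152 of all 7189 genes passed, so that members did not pass more often than genes in general. The 2 responses share no library. For the difference between them, edgeR called 0 of 21 members and 0 of 7189 genes (0%), with 0 members and 104 genes at an unadjusted p under 0.05, and DESeq2 called 0 members and 3 genes. For Cyp2a5 the difference was 1.00 ± 0.80 on the log2 scale (unadjusted p = 0.251), which does not show that the responses were alike, and without the α7G female control library it was -0.27.

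Partners of these enzymes were counted from lists of related genes. No tested partner passed an adjusted p of 0.05 for genotype or CS. Of 10 genes of electron transfer and heme supply 9 had a positive log2 fold-change after CS (median 0.34), and Alas1, the first enzyme of heme synthesis, was at 700 ± 139 RPM in control and 1083 ± 211 RPM in CS (SD, n = 4, log2 fold-change 0.64 ± 0.22, edgeR adjusted p = 0.629). Por, the reductase that feeds all microsomal P450s, was at 311 ± 71.0 and 379 ± 56.3 RPM. Of 6 genes that supply the cosubstrates of conjugation, Ugdh, which makes UDP-glucuronic acid, was higher in each CS library, at 60.8 ± 8.28 and 76.0 ± 3.95 RPM (log2 fold-change 0.35 ± 0.15, edgeR adjusted p = 0.629). Of 3 further conjugation enzymes, the methyltransferase Inmt was at 392 ± 223 and 735 ± 201 RPM (1.02 ± 0.19, edgeR adjusted p = 0.629). None of 7 xenobiotic receptors and partners had an unadjusted p under 0.05 in either comparison. Of 5 efflux transporters Abcc5 (1.02 ± 0.29) and Abcg2 (0.65 ± 0.22) had a higher level in α7E260A:G at an unadjusted p under 0.05 (edgeR adjusted p = 0.190 and 0.265). At the same p, 3 of 8 fibroblast markers were higher and 1 was lower after CS, and 3 of 5 general epithelial markers were higher. Club cell sums, at 29920 to 67760 RPM in control and 21370 to 85370 RPM in CS, overlapped, while 8 of 10 tested club cell markers had a positive log2 fold-change, with a median of 0.52. That median was 0.59 over 5 general epithelial markers, 0.45 over 8 fibroblast markers and 0.23 over 5 ATI markers, all 5 of which were positive. It was 0.16 over ciliated and 0.15 over alveolar macrophage markers. Slightly negative medians were found over ATII (-0.05), endothelial (-0.05) and other leukocyte markers (-0.02). The log2 fold-changes of Cyp2a5, Ephx1, Ugt1a6a, Fmo1 and Fmo5 set beside these were 0.38 to 1.31, and the part of cell composition in them was not tested.

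The libraries of a group differ in sex. With 1 library of each sex per group, sex cannot be told apart from other differences between them, such as in their preparation, if there were any. When females were set against males with group as a further term, edgeR called 0 of the 21 members and 2 of the 7189 genes (0.0278%), and DESeq2 called 0 members and 42 genes. At an unadjusted p under 0.05 there were 3 members, where 22% of all genes were. Sult1d1 was higher in females, at 173, 135, 106 and 132 RPM against 111, 113, 67.6 and 101 RPM in males (α7G control, α7G CS, α7E260A:G control and α7E260A:G CS), with a log2 fold-change of 0.66 ± 0.16. Cyp27a1 was lower in females, at 19.0, 27.3, 22.5 and 19.6 RPM against 38.5, 33.3, 43.3 and 32.9 RPM in males in the same order (-0.57 ± 0.17). For Cyp4v3 the log2 fold-change was 0.30 ± 0.12. Each of the 3 had an edgeR adjusted p of 0.227. For Cyp27a1 each male library was above each female library.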

How the data were processed

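RNA-Seq of CD45-depleted cells of the distal lung was analysed in 8 libraries. The authors aligned reads with STAR to mm9 and counted them on CDS with htseq-count and GENCODE release M1 (stranded libraries), and the counts they deposited are raw, with neither normalization nor filter. RPM used each library's total count. Genes with a mean of at least 200 counts were tested, leaving out immunoglobulin, histocompatibility, Gm and ribosome subunit genes by name as in the study, which kept 7189. edgeR 4.0.16 (R 4.3.3, limma 3.58.1) was used with TMM, glmQLFit and glmQLFTest in 1 model of the 4 groups, with Benjamini-Hochberg adjustment at 0.05. Standard errors follow from each log2 fold-change and its F value. Single values were compared by exact two-sided permutation of 4 against 4 libraries. The CDS length offset was a lowess fit (span 0.667). DESeq2 1.42.0, library size scaling, other filters and leaving out each library were alternatives. Tests were run on simulated counts first, and tables used Python 3.11.15 with pandas 2.3.3 and numpy 2.4.6 and matplotlib 3.10.9.

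Named were all members with a mean of at least 200 counts, and of those with 10 to 200 the 10 most abundant and those whose libraries did not overlap by genotype or exposure (at least 3 counts in each higher library). Log2 fold-changes are given mainly where the unadjusted p in the main fit was under 0.05 or libraries did not overlap, and for values set beside such a one. Members with a mean of 10 to 200 counts were not in that fit, and theirs are given only without overlap. In the filterByExpr fit by edgeR, Cyp2j6, Cyp2e1, Ces1g and Ces2c also had an unadjusted p under 0.05 for genotype or CS, but no adjusted p under 0.05. The members, marker lists and partner lists were chosen with earlier results of these data known. A member and a related enzyme are not reported by name here. Reads were not realigned.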

Additional observations from a re-analysis of the deposited data

Results flagged for a closer look

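In 5 results both samples of one group lay on one side and both of the other on the opposite side of a ratio of 1. The ratio of CS to control of Ces1d was 0.877 and 0.649 in α7G males and females (mean 0.763) and 1.19 and 1.28 in α7E260A:G (mean 1.236). The difference of its log2 fold-changes was 0.53 ± 0.36 (edgeR, unadjusted p = 0.182, adjusted p = 0.997). For Cyp2s1 the ratios were 0.921 and 0.747 (mean 0.834) against 1.09 and 1.44 (mean 1.264), with a difference of 0.38 ± 0.47 (edgeR adjusted p = 0.997). Cyp27a1 had ratios of α7E260A:G to α7G of 1.12 and 1.18 in control (mean 1.154) and 0.989 and 0.717 in CS (mean 0.853), with the same contrast at -0.59 ± 0.54 (edgeR adjusted p = 0.997).

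Cyp2s1 and Fmo2 went opposite ways by genotype in the sexes, which was not tested. Cyp2s1 had ratios of α7E260A:G to α7G of 1.10 and 1.29 in males (mean 1.195) and 0.361 and 0.697 in females (mean 0.529). Fmo2 had ratios of 1.67 and 1.33 in males (mean 1.503) and 0.326 and 0.682 in females (mean 0.504). Endothelial marker sums went the same way, at 751 and 755 RPM in α7G and 887 and 767 RPM in α7E260A:G males and at 689 and 701 RPM in α7G and 316 and 403 RPM in α7E260A:G females, and their part in this was not tested.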

How the results depend on the processing

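No member with an unadjusted p under 0.05 in a comparison reversed its direction there in any alternative tried. At larger p, 5 of the 21 members reversed in at least 1 alternative for genotype and 8 for CS, such as Sult1d1 after CS, at 0.11 by edgeR and -0.03 with the CDS length offset. The number of members called for genotype, 0 by edgeR, was 1 with all genes of at least 1 count (69 of 17542 genes in all called), 1 with library size scaling (9 of 7189), 6 with the CDS length offset, 7 with DESeq2 and, in fits added after the data were seen, 7 of 53 with filterByExpr and the offset (494 of 14140 genes). Leaving out each library in turn gave 0 to 1, with 1 without the male and 1 without the female α7E260A:G control library, where 121 and 275 genes in all were called against 6. For CS within α7G, 2 of 21 members were called when its 4 libraries were fitted alone, with 1152 of 7189 genes in all against 0. The cause of these differences was not tested. Members not overlapping between CS and control, 0 by RPM, were 1 with TMM-scaled CPM, 1 with the length dependence removed, 3 when members with a mean of at least 10 counts were included, and 0 to 3 without 1 library, with 3 without the female α7G control library. Those not overlapping between genotypes were 8, and 8 to 11 in the alternatives. Apart from leaving out the female α7G control library, where 4.1% of all genes were higher in CS, shares over all genes are not given for these alternatives. The counts therefore show only how the number of members moved, not whether it exceeded that of all genes.

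With sex as a replicate block 1 member was called for genotype and 40 genes in all, with the block and the CDS length offset 7 (675 of 7189 genes), and with filterByExpr added 10 of 53 (710 of 14140 genes). Same-sex libraries share a label, and their deviations correlated at -0.096 to 0.837 (mean 0.344, 6 pairs of groups). For genotype within the CS libraries alone, 1 member was called with the offset (83 of 7189 genes) and 3 with the block and the offset (246 of 7189). The block did not change the count of called members for genotype within controls, for CS or for the difference of the CS responses. Depth limits what can be said of the 42 members counted below a mean of 10.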
